A study of Mus musculus with 6 samples.

Results

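The hypoxia response and glycolysis genes described here are 41 genes chosen by symbol, as factors and targets of the hypoxia-inducible factors (HIF) and enzymes of glycolysis, out of 19131 genes in the deposited tables. They fall into 19 glycolysis genes (glucose carriers, pathway enzymes, PFKFB regulators and a lactate carrier), 15 targets outside glycolysis, and 7 HIF regulators (4 subunits, 2 hydroxylases and VHL). All 41 were in the files and all 41 passed the filter on low counts. The choice of genes did not use their measured values, but it was made with earlier results of these data known.

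Cells short of oxygen keep their energy supply by turning on a shared set of genes. In normal oxygen, prolyl hydroxylases mark the alpha subunits of HIF, and the VHL protein then sends them for degradation. When oxygen falls the alpha subunits persist, pair with ARNT and bind a short DNA motif near genes for glucose uptake, glycolysis, mitochondrial turnover, acid balance and matrix assembly. In skin this program is known from the epidermis and the hair follicle, which work at low oxygen, and from any tissue whose vessels deliver too little blood.

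Whole skin of C57BL/6N mouse embryos at embryonic day 17.5 was sequenced as bulk poly(A)-selected RNA from 3 Tie1 knockout and 3 control samples. Tie1 encodes a receptor of the endothelium for which no own ligand is established, and the study asks how its loss affects vessel sprouting and the assembly of veins. Sample titles join Tie1 and ECD in both groups (Tie1ECDKO and Tie1ECDWT) without spelling out ECD. Which part of the gene was deleted, in which cells, and what alleles the controls carry are not stated. Separate embryos or litters are not stated for the replicates, so the p-values measure only the spread between these samples, which may be partly technical.

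The libraries held 19826856 to 20591164 estimated reads. Tie1 had 84, 53 and 46 reads in the knockout libraries, against 1187, 1023 and 1215 in the control libraries, so each library matched its label. Knockout 1 and control 1 stood apart in composition. Their hair follicle markers summed to 213 and 172 CPM, against 277 to 414 CPM in the other 4 libraries. In both groups epidermal and dermal genes were abundant (differentiated epidermis markers 21114 to 27071 CPM in the knockouts, against 17199 to 31370 CPM in the controls). Y-linked transcripts were near 0 in knockout 1, control 1 and control 2, so each group held both sexes. Levels are in CPM, the count of a gene scaled by the TMM-adjusted library size. A log2 fold change (log2 FC) is knockout over control, given with its standard error (SE) from edgeR's quasi-likelihood fit, and a gene was called at an adjusted p under 0.05 over all 15035 genes tested.

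Promoter sequences are shown first, because the motif that HIF binds is the feature that ties these genes together in textbook accounts. The core of the motif was searched as ACGTG or GCGTG on both strands in the 250 bases before the first listed start site. The 4 stretches are those of the members outside the regulators with the smallest p, with a match and lying wholly before the annotated gene. They come from RefSeq on GRCm38.p6, run 5′ to 3′ on the strand of the gene, and capitals mark the matches, which read CACGT or CACGC where the motif lies on the opposite strand. Pgk1 lies at chrX:106186850-106187099 on the plus strand, Stc2 at chr11:31370062-31370311 on the minus strand, Eno1 at chr4:150236458-150236707 on the plus strand and Pfkl at chr10:78009808-78010057 on the minus strand.

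Pgk1: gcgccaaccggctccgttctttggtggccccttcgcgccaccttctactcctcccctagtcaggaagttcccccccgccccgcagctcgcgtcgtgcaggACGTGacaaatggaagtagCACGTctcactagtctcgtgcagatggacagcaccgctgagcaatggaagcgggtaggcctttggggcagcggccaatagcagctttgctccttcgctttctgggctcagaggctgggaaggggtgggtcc

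Stc2: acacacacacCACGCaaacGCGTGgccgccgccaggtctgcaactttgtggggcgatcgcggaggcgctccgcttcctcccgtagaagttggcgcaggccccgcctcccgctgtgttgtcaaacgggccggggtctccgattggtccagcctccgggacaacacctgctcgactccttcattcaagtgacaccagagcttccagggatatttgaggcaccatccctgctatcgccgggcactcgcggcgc

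Eno1: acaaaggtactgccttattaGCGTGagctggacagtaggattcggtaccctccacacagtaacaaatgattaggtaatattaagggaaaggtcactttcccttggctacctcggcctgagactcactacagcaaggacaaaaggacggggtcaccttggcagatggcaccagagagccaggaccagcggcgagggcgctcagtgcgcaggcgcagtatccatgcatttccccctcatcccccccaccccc

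Pfkl: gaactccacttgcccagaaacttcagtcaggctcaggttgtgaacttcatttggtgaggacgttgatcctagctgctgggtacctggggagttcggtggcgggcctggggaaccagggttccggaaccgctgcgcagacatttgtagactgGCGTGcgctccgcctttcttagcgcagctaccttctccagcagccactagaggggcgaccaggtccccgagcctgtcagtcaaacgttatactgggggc

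The Pgk1 stretch held 2 matches of the A form, 1 on each strand, with first bases 150 and 131 bases before the start site. Stc2 held 2 matches of the G form, and Eno1 and Pfkl held 1 each. Of the 34 members found in the RefSeq promoter table, 27 (79.4%) had at least 1 match in the 250 bases, against 54.0% of the 11835 tested genes in that table and 38.6% of all 27025 genes there. The A form alone was in 16 of the 34 (47.1%), against 20.8% of the tested genes. By class, 13 of 18 glycolysis genes, 9 of 10 targets and 5 of 6 regulators had a match. A match is a description of letters and not a binding site. Hk1, Gpi1, Aldoa, Tpi1, Pkm, Mxi1 and Vhl had none in this window. Slc2a3, Bnip3l, Plod2, Lox, Ndrg1, Stc1 and Epas1 were not among the 34.

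**Figure D1:**
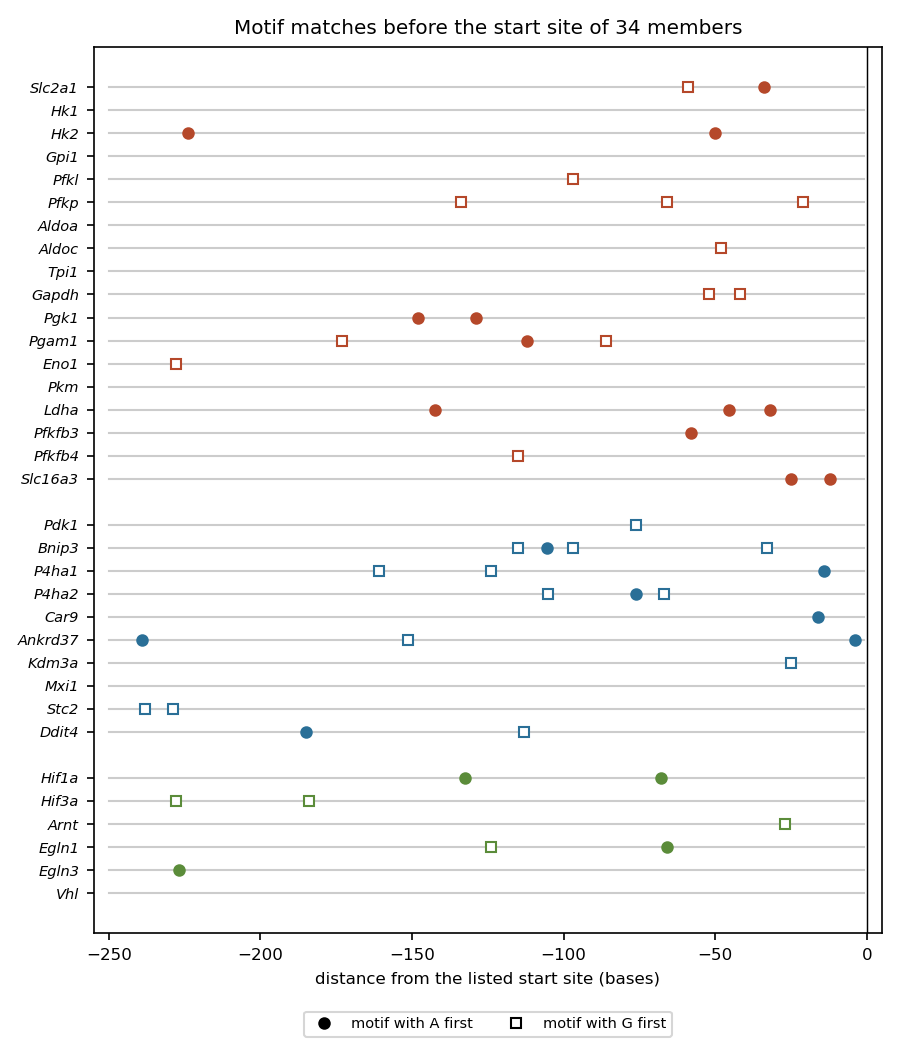
Matches to the HIF motif core in the 250 bases before the first listed start site of 34 members; the horizontal axis is distance from the start site in bases, filled circles are the form with A first, open squares the form with G first, and colours are glycolysis genes (top), targets (middle) and HIF regulators (bottom). The matches lie throughout the window, and 27 of the 34 genes have at least 1.

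Most of the hypoxia response and glycolysis genes were higher in Tie1 knockout skin than in control skin. Of the 41 genes, 40 had a positive log2 FC (97.6%, against 51.2% of all genes tested). All 3 knockout libraries lay above all 3 control libraries for 28 of the 41 (68.3%, against 7.03% of all genes), and the reverse held for 0 (6.78% of all genes). An unadjusted p under 0.05 with a higher knockout level was reached by 31 (75.6%, against 4.08% of all genes), and 0 reached it in the other direction (3.35% of all genes). For genes averaging 10 CPM or more, the shares with higher knockout levels were 6.97% and 3.97%. The shifts were small. The median log2 FC was 0.38 for glycolysis genes, 0.45 for targets and 0.12 for HIF regulators, against 0.0038 over all genes tested. Whether the 3 classes differ was not tested.

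A single member, Stc1, passed the edgeR threshold over all genes (0.160% of all genes did in either direction, 0.0865% with a higher knockout level). limma-voom called the same gene (0.0732% of all genes called higher). DESeq2 called 16 members, all higher (0.811% of all genes called higher), of which 8 were glycolysis genes, 7 targets and 1 the regulator Egln3. In bulk skin, more cells of a type and more RNA per cell cannot be told apart, and the source cells of a transcript are not known.

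**Figure D2:**
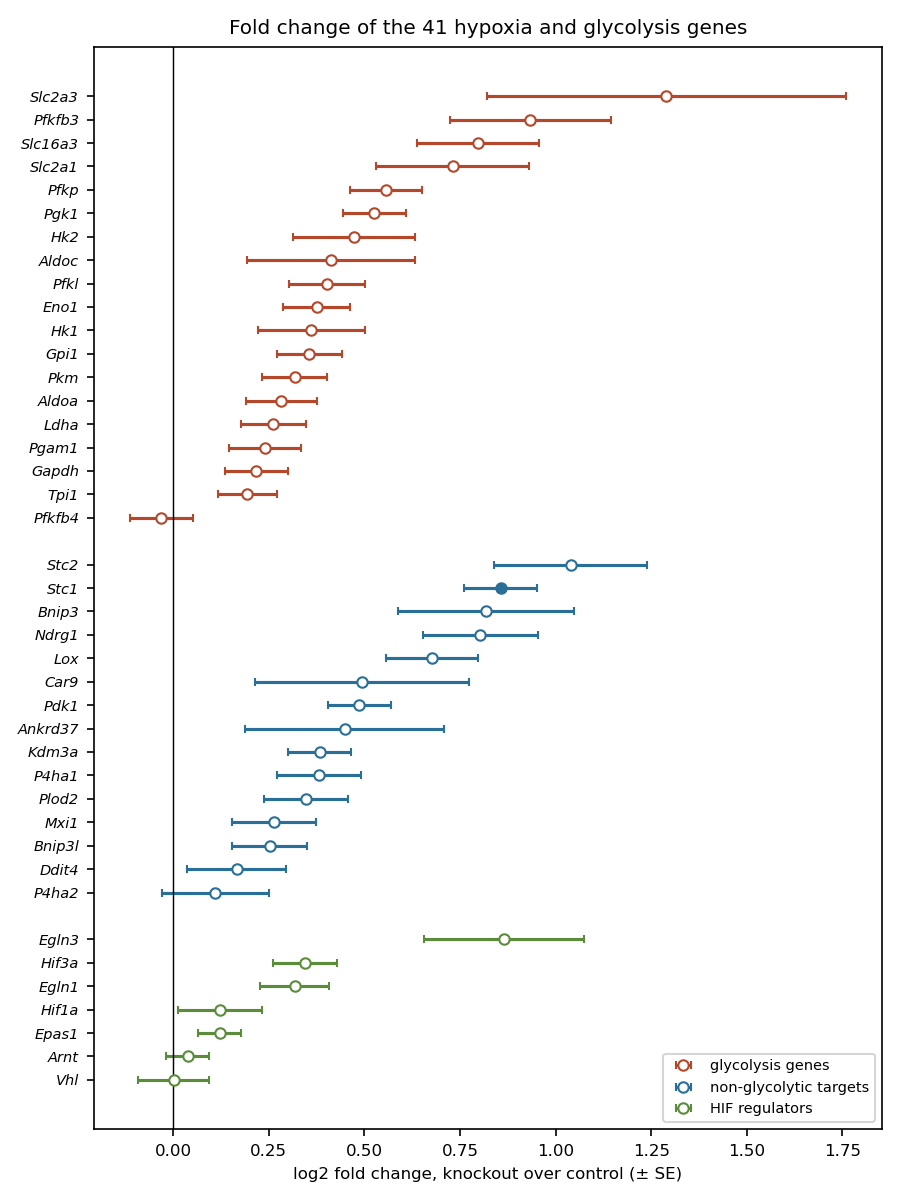
The log2 fold change, knockout over control, of the 41 genes with its SE, ordered within the glycolysis genes (top), non-glycolytic targets (middle) and HIF regulators (bottom); a filled point marks an edgeR adjusted p under 0.05. Slc2a3 has the largest value (1.29) with the widest error, Stc1 is the filled point at 0.86, and Pfkfb4 and Vhl lie near 0.

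The carriers that bring glucose into the cell had large differences. Slc2a1, the gene of the main glucose carrier GLUT1, had 426, 437 and 408 CPM in knockout skin, against 181, 254 and 331 CPM in control skin. The knockout libraries were close to each other and above every control, while the controls spread nearly as widely as the groups differed. Its log2 FC was 0.73 (SE 0.20, edgeR adjusted p = 0.43). With a posterior Hox score as a covariate Slc2a1 was called, at a log2 FC of 1.13 (edgeR adjusted p = 0.0379). Slc2a3, which encodes the high-affinity carrier GLUT3, had 37.8, 44.1 and 16.0 CPM in knockout skin, against 18.3, 14.5 and 7.41 CPM in control skin. Knockout 3 lay below control 1, so the groups overlapped, and knockout 3 and control 3 were the lowest libraries of their groups. Its log2 FC of 1.29 (SE 0.47, edgeR adjusted p = 0.609) was the largest of the 41 genes. With the replicate number as a block Slc2a3 was called (log2 FC 1.26, edgeR adjusted p = 0.029). Per kilobase of merged exons Slc2a1 stood at 129.9 CPM in knockout skin, against 78.2 CPM in control skin, and Slc2a3 at 8.25 CPM in knockout skin, against 3.38 CPM in control skin, so Slc2a1 was the more abundant transcript in both groups.

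The enzymes of the first steps trap glucose and commit it to glycolysis. Hk1, the widely expressed hexokinase, had 122, 84.3 and 90.0 CPM in knockout skin, against 75.9, 77.6 and 77.7 CPM in control skin. Hk2, the hexokinase that HIF induces, had 156, 104 and 125 CPM in knockout skin, against 84.2, 88.5 and 104 CPM in control skin. Knockout 1 was the highest library for both. Hk1 did not overlap between groups and Hk2 did, by knockout 2 and control 3. Without knockout 1 the log2 FC of Hk1 was 0.18 and that of Hk2 0.31, against 0.36 (SE 0.14) and 0.47 (SE 0.16) with all libraries. Gpi1, the isomerase that turns glucose phosphate into fructose phosphate, had 554, 525 and 545 CPM in knockout skin, against 391, 411 and 466 CPM in control skin, with a log2 FC of 0.36 (SE 0.084).

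Phosphofructokinase, the main control point of the pathway, is made from several isozyme genes. Pfkp, the platelet type, had 94.9, 81.2 and 87.3 CPM in knockout skin, against 54.3, 58.7 and 66.1 CPM in control skin. The groups were well apart, and the log2 FC was 0.56 (SE 0.094, edgeR adjusted p = 0.107). Pfkl, the liver type, had 215, 185 and 175 CPM in knockout skin, against 131, 144 and 159 CPM in control skin, with a log2 FC of 0.40 (SE 0.10). Pfkfb3 makes the sugar bisphosphate that activates phosphofructokinase, and it had 112, 77.5 and 66.5 CPM in knockout skin, against 45.8, 38.0 and 50.4 CPM in control skin. Every knockout library was above every control, knockout 1 by the widest margin, and the log2 FC was 0.93 (SE 0.21, edgeR adjusted p = 0.276). Pfkfb4, a second gene of that family and likewise known as HIF-induced, was the exception. It had 20.4, 19.1 and 19.3 CPM in knockout skin, against 21.3, 19.02 and 19.8 CPM in control skin, and a log2 FC of −0.032 (SE 0.083).

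The lower steps of glycolysis are run by very abundant enzymes, and all of those listed had positive log2 FCs. Pgk1, the phosphoglycerate kinase that makes ATP, had 633, 554 and 567 CPM in knockout skin, against 378, 422 and 418 CPM in control skin. The lowest knockout value was far above the highest control value, and the log2 FC of 0.53 (SE 0.083) had the smallest p of the glycolysis genes (edgeR adjusted p = 0.0847). Eno1, the enolase of most tissues, had 825, 724 and 723 CPM in knockout skin, against 541, 594 and 616 CPM in control skin (log2 FC 0.38, SE 0.088). Pkm, the pyruvate kinase gene, had 1218, 1208 and 1272 CPM in knockout skin, against 902, 1025 and 1042 CPM in control skin (log2 FC 0.32, SE 0.085). In both genes the groups did not overlap.

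Aldoa, the main aldolase, had 1374, 1362 and 1511 CPM in knockout skin, against 1115, 1099 and 1281 CPM in control skin (log2 FC 0.28, SE 0.093). Gapdh, often used as a loading control, had 3105, 3154 and 3279 CPM in knockout skin, against 2664, 2668 and 2874 CPM in control skin (log2 FC 0.22, SE 0.083). Ldha, which turns pyruvate into lactate, had 1112, 986 and 968 CPM in knockout skin, against 828, 835 and 894 CPM in control skin (log2 FC 0.26, SE 0.084). For these 3 genes the groups did not overlap. Pgam1, the phosphoglycerate mutase, had 547, 467 and 446 CPM in knockout skin, against 393, 409 and 435 CPM in control skin (log2 FC 0.24, SE 0.094). Tpi1, the triose phosphate isomerase, had 748, 706 and 651 CPM in knockout skin, against 602, 601 and 637 CPM in control skin (log2 FC 0.19, SE 0.078). In both of these knockout 3 lay just above control 3. Aldoc, the minor aldolase gene, overlapped between groups, with 26.0, 21.2 and 17.9 CPM in knockout skin, against 11.6, 18.3 and 19.01 CPM in control skin (log2 FC 0.41, SE 0.22).

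Slc16a3 encodes MCT4, the carrier that exports lactate from glycolytic cells. It had 114, 92.6 and 103 CPM in knockout skin, against 55.2, 48.8 and 74.0 CPM in control skin. The groups did not overlap, and the log2 FC was 0.80 (SE 0.16, edgeR adjusted p = 0.218). In all, 18 of the 19 glycolysis genes had a positive log2 FC, 15 did not overlap between groups (7.03% of all genes), 17 had an unadjusted p under 0.05 with a higher knockout level (4.08% of all genes), and 0 passed edgeR over all genes. Retrocopies can share reads with these enzymes. The retrogene Eno1b had 0 to 6.99 estimated reads in a library, and the pseudogene Gapdh-ps15 had 568 to 975, with a log2 FC of 0.011. In the annotation the spans of Pfkp, Tpi1 and Slc16a3 overlap a neighbouring gene by 285, 34 and 1292 bases, and it is not stated whether counting used the strand.

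**Figure D3:**
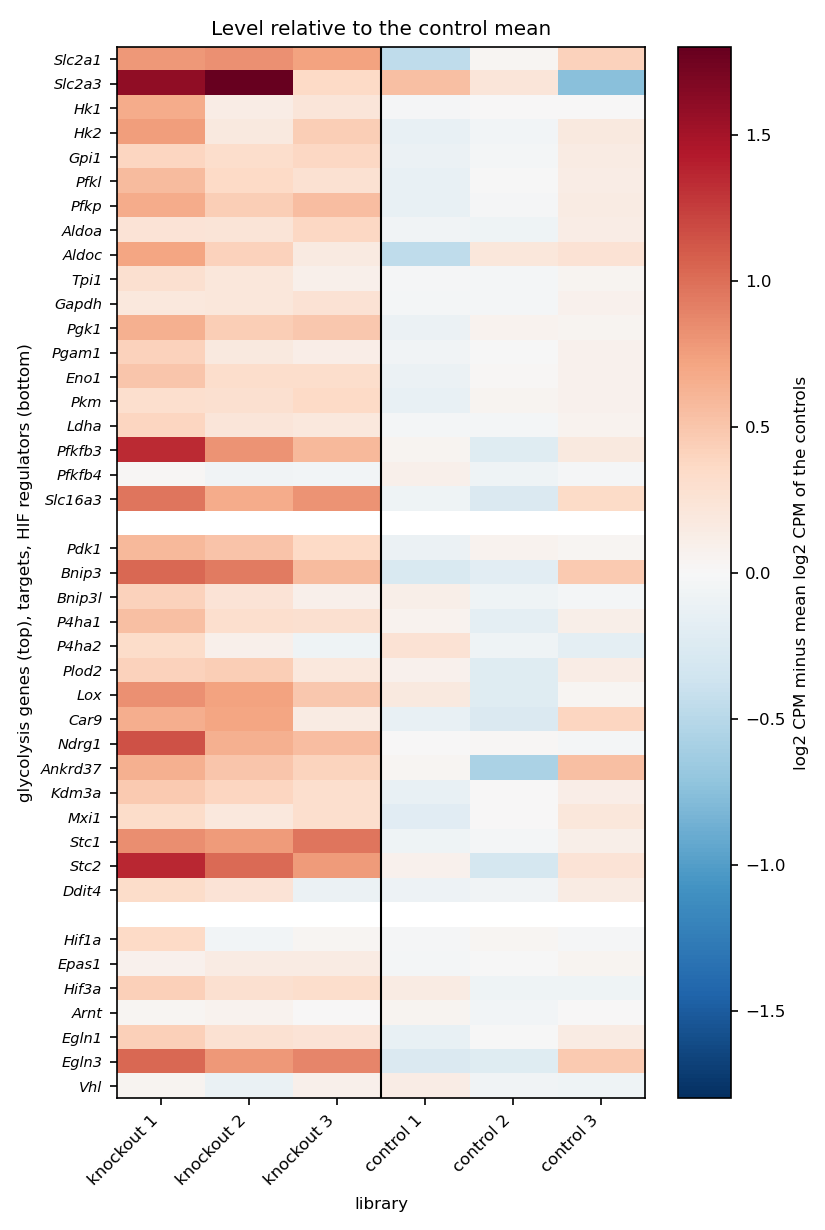
Log2 CPM of each member minus the mean log2 CPM of the controls, for glycolysis genes (top), targets (middle) and HIF regulators (bottom), in the 3 knockout libraries (left) and the 3 control libraries (right). Red is above the control mean. The knockout columns are mostly red, deepest in knockout 1, and control 3 is the reddest control.

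The size of the difference varied between libraries. Averaged over the glycolysis genes, log2 CPM minus the control mean was 0.60, 0.42 and 0.35 in knockout 1, 2 and 3, against −0.075, −0.014 and 0.088 in control 1, 2 and 3. For the targets these averages were 0.66, 0.51 and 0.34 in the knockouts, against −0.014, −0.14 and 0.15 in the controls. For the regulators they were 0.34, 0.20 and 0.25 in the knockouts, against −0.017, −0.055 and 0.072 in the controls. Knockout 1 was highest and control 3 was the highest control in all 3 classes. Without both knockout 1 and control 1, the libraries with few hair follicle transcripts, the medians were 0.26 for glycolysis genes, 0.35 for targets and 0.12 for regulators. In that fit 21 of the 41 genes were higher at an unadjusted p under 0.05 (6.12% of all genes), 30 did not overlap between groups (20.9% of all genes), and 5 were called, all higher: Pgk1, Lox, Ndrg1, Stc1 and Hif3a (0.465% of all genes called higher).

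Among the targets outside glycolysis, the secreted stanniocalcins had the smallest p (Stc1) and the largest log2 FC (Stc2). Stc1, a glycoprotein hormone of calcium and phosphate handling, had 23.5, 22.3 and 25.5 CPM in knockout skin, against 12.4, 12.8 and 14.1 CPM in control skin. The groups were tight and far apart. Stc1 rose 1.81-fold in knockout skin (log2 FC 0.86, SE 0.096, edgeR adjusted p = 0.0342), and ranked 14 of 15035 genes by p. The log2 FC ran from 0.80 to 0.91 with 1 library left out, but the call was lost in each of these smaller fits (edgeR adjusted p = 0.0759 to 0.203). It was also lost with a skeletal muscle score, a Y-linked score or a posterior Hox score as a covariate (edgeR adjusted p = 0.0748, 0.0531 and 0.101), at log2 FCs of 0.86, 0.83 and 0.92. Stc2, its relative, had 19.1, 15.1 and 12.7 CPM in knockout skin, against 7.89, 5.99 and 8.84 CPM in control skin. All knockout libraries were above all controls, and the log2 FC was 1.04 (SE 0.20, edgeR adjusted p = 0.155).

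Targets that act on mitochondria were higher as well. Pdk1, the kinase that blocks entry of pyruvate into mitochondrial oxidation, had 115, 110.4 and 98.5 CPM in knockout skin, against 71.6, 80.7 and 78.9 CPM in control skin. The groups were apart, with a log2 FC of 0.49 (SE 0.082, edgeR adjusted p = 0.103). Bnip3, a receptor for the removal of mitochondria by autophagy, had 129, 119.9 and 93.8 CPM in knockout skin, against 51.8, 55.2 and 87.3 CPM in control skin. Knockout 3 and control 3 nearly met, and the log2 FC was 0.82 (SE 0.23, edgeR adjusted p = 0.43). Bnip3l, its relative, which also clears mitochondria from maturing red cells, had 234, 208 and 187 CPM in knockout skin, against 189, 166 and 172 CPM in control skin. These groups overlapped by knockout 3 and control 1, and the log2 FC was 0.25 (SE 0.098). Control 1 was also the library with the most red cell transcripts, and their part in the Bnip3l levels was not tested. Per kilobase of merged exons, Bnip3 and Bnip3l stood at 61.6 and 63.8 CPM in knockout skin, against 34.9 and 53.6 CPM in control skin.

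Enzymes that modify and cross-link collagen are HIF targets made largely by fibroblasts. Lox, the lysyl oxidase that cross-links collagen and elastin, had 517, 484 and 410.3 CPM in knockout skin, against 329.5, 253 and 302 CPM in control skin. No control reached the lowest knockout, and the log2 FC was 0.68 (SE 0.12, edgeR adjusted p = 0.145). P4ha1, a catalytic subunit of the collagen prolyl hydroxylase, had 200.1, 169 and 167 CPM in knockout skin, against 144, 121 and 148 CPM in control skin (log2 FC 0.38, SE 0.11). Plod2, a lysyl hydroxylase of collagen, had 65.8, 66.9 and 55.8 CPM in knockout skin, against 51.8, 42.4 and 54.1 CPM in control skin (log2 FC 0.35, SE 0.11). P4ha2, the other catalytic subunit listed, overlapped between groups at 94.1 to 125 CPM in the knockouts, against 88.6 to 119 CPM in the controls, with a log2 FC of 0.11 (SE 0.14) that was −0.0061 without knockout 1. Of 8 dermal fibroblast markers, 4 had a log2 FC above 0 and 4 below, with a median of 0.0072. They summed to 35468 to 38514 CPM in the knockouts, against 33745 to 39915 CPM in the controls. The part of fibroblasts in the levels of the collagen enzymes was not tested.

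The remaining targets serve varied roles. Ndrg1, a hypoxia-induced protein of epithelia and peripheral nerve, had 385, 271 and 255 CPM in knockout skin, against 175, 177 and 169.6 CPM in control skin. The controls were nearly identical and all knockouts lay above them, with a log2 FC of 0.80 (SE 0.15, edgeR adjusted p = 0.165; 0.60 without knockout 1). Kdm3a, a histone demethylase, had 132, 124 and 117 CPM in knockout skin, against 87.2, 95.9 and 103 CPM in control skin (log2 FC 0.38, SE 0.082). Mxi1, an antagonist of MYC, had 101, 90.8 and 98.2 CPM in knockout skin, against 69.1, 80.0 and 92.2 CPM in control skin (log2 FC 0.26, SE 0.11). Kdm3a did not overlap and Mxi1 did, by knockout 2 and control 3. Car9, Ankrd37 and Ddit4 overlapped and had unadjusted p above 0.05. Car9, the surface carbonic anhydrase that is a classic hypoxia marker, was scarce, at 28 to 41 reads in a knockout library and 21 to 33 in a control library (log2 FC 0.49, SE 0.28). Its annotated span overlaps Arhgef39 by 1722 bases, and that of Ankrd37 overlaps Ufsp2 by 51 bases. Ankrd37, an ankyrin repeat protein, stood at 13.1 to 15.5 CPM in the knockouts, against 6.69 to 14.4 CPM in the controls (log2 FC 0.45, SE 0.26). Ddit4, which restrains mTOR signalling, stood at 67.9 to 92.6 CPM in the knockouts, against 69.1 to 81.0 CPM in the controls (log2 FC 0.17, SE 0.13). Across the class, 15 of the 15 targets had a positive log2 FC, 9 did not overlap (7.03% of all genes), 11 had an unadjusted p under 0.05 with a higher knockout level (4.08%) and 1 was called higher by edgeR (0.0865%).

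**Figure D4:**
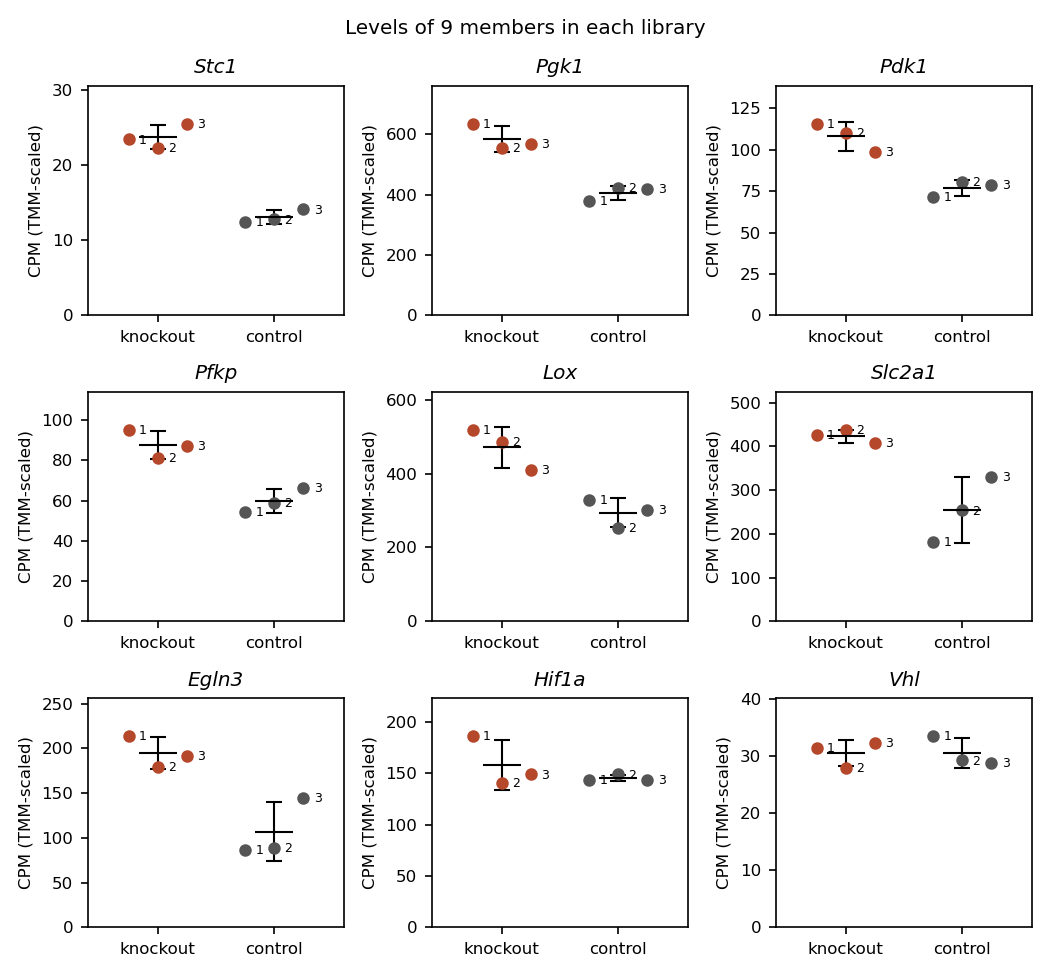
CPM of 9 members in each library, knockout left and control right; points are libraries with their replicate number, and bars are the mean and SD (n = 3 each). Stc1, Pgk1, Pdk1 and Pfkp are apart by more than the range of either group, and Lox by less than that of the knockouts. Slc2a1 and Egln3 are apart with scattered controls, and Hif1a and Vhl overlap.

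Among the regulators are 2 prolyl hydroxylases, the oxygen sensors of the pathway, which are known as HIF-induced. Egln3, the inducible prolyl hydroxylase, had 214, 179 and 191 CPM in knockout skin, against 86.8, 89.2 and 145 CPM in control skin, with a log2 FC of 0.86 (SE 0.21, edgeR adjusted p = 0.328). Egln1, the main hydroxylase that marks HIF in normal oxygen, had 181, 163 and 159.6 CPM in knockout skin, against 123, 133 and 149 CPM in control skin, with a log2 FC of 0.32 (SE 0.090). For both genes every knockout was above every control, and control 3 was the highest control. Per kilobase of merged exons, Egln3 stood at 73.1 CPM and Egln1 at 46.8 CPM in knockout skin, against 40.1 and 37.5 CPM in control skin. Egln2, the related hydroxylase outside the 41 genes, had a log2 FC of −0.095 (SE 0.074).

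The 4 HIF subunits had log2 FCs of 0.037 to 0.34. Hif3a, whose products include inhibitors of the other alpha subunits and which is itself HIF-induced, had 216, 197 and 201 CPM in knockout skin, against 178, 153 and 152 CPM in control skin. The groups did not overlap, and the log2 FC was 0.34 (SE 0.083, edgeR adjusted p = 0.277). Epas1, the HIF alpha subunit prominent in endothelium, had 95.6, 100.2 and 100.5 CPM in knockout skin, against 88.3, 90.5 and 93.7 CPM in control skin. Its groups were apart by a narrow margin (log2 FC 0.12, SE 0.057, edgeR adjusted p = 0.685). Hif1a, the subunit found in most cells, had 186, 140.4 and 149 CPM in knockout skin, against 144, 149 and 144 CPM in control skin. Knockout 1 stood far above the other 5 libraries, and the log2 FC of 0.12 (SE 0.11) was −0.0085 without it. Arnt, the shared partner, had 112, 114 and 109.8 CPM in knockout skin, against 112, 105 and 109.8 CPM in control skin (log2 FC 0.037, SE 0.057). Vhl, the subunit that recognises marked HIF, had 31.4, 28.0 and 32.3 CPM in knockout skin, against 33.5, 29.3 and 28.8 CPM in control skin. Its log2 FC of 0.0015 (SE 0.093) took either sign across settings. HIF alpha subunits are controlled mainly by protein stability, which RNA counts do not measure.

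Per kilobase of merged exons the 4 subunits ran in the order Hif3a, Hif1a, Arnt and Epas1 in knockout skin, at 31.5 ± 1.54, 29.1 ± 4.46, 23.2 ± 0.441 and 17.9 ± 0.496 CPM (SD, n = 3). In control skin the values in that order were 24.8 ± 2.27, 26.7 ± 0.544, 22.6 ± 0.772 and 16.5 ± 0.491 CPM (SD, n = 3). Hif3a and Hif1a differed by less than the larger of their SDs in both groups, as did Hif3a and Arnt in control skin, and Epas1 was the lowest in both. Of the 7 regulators 4 did not overlap between groups (7.03% of all genes), 3 had an unadjusted p under 0.05 with a higher knockout level (4.08% of all genes), and 0 were called by edgeR.

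Isozymes of skeletal muscle, which skin samples carry with the underlying muscle, did not share the pattern of their widely expressed partners. These pairs were picked after their values were seen and are given as a description. Eno3, the muscle enolase, had 274, 334 and 397 CPM in knockout skin, against 374, 345 and 387 CPM in control skin (log2 FC −0.14, SE 0.13). Pgam2, the muscle mutase, had 102, 115 and 144 CPM in knockout skin, against 140.1, 136 and 129 CPM in control skin (log2 FC −0.17, SE 0.12). Pfkm, the muscle phosphofructokinase, had 106, 119 and 143 CPM in knockout skin, against 124, 120.4 and 131 CPM in control skin (log2 FC −0.028, SE 0.11). All 3 were lowest in knockout 1 and highest in knockout 3, as were the summed muscle markers, at 9695 and 15492 CPM, while the controls summed to 11845 to 12678 CPM. The log2 ratio of Eno1 to Eno3 was 1.59, 1.12 and 0.86 in the knockouts, against 0.53, 0.79 and 0.67 in the controls. The ratio of Pgam1 to Pgam2 was 2.42, 2.02 and 1.63 in the knockouts, against 1.49, 1.58 and 1.75 in the controls, and knockout 3 stood among the controls. That of Pfkp to Pfkm was −0.16, −0.55 and −0.71 in the knockouts, against −1.19, −1.03 and −0.99 in the controls.

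**Figure D5:**
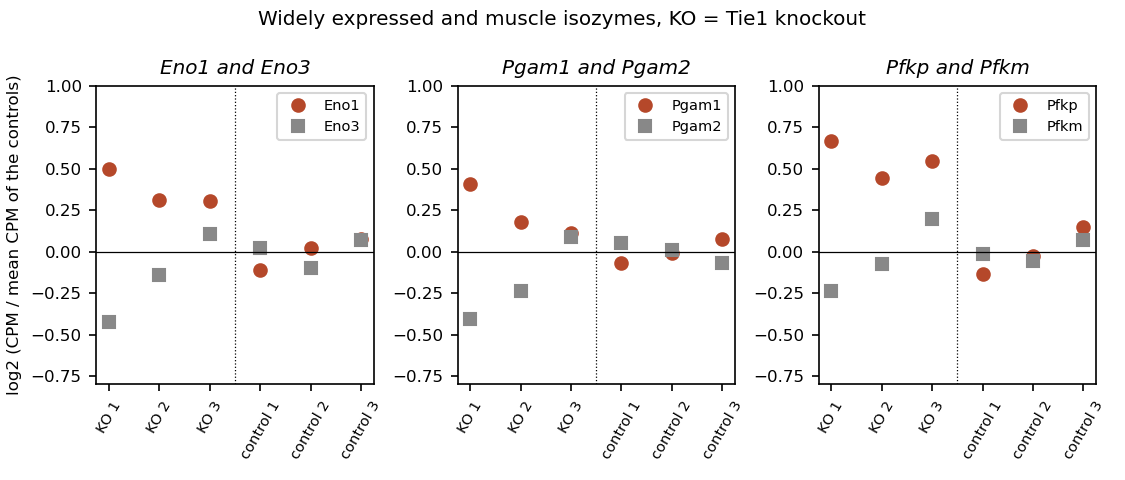
Log2 of CPM over the mean CPM of the controls for 3 pairs of isozymes in the knockout (KO) libraries, left of the dotted line, and the control libraries, right of it; circles are the widely expressed gene and squares the muscle gene. Circles lie above 0 in the knockouts, while the squares lie below 0 in knockout 1 and 2 and above 0 in knockout 3.

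Other genes of the pathway were read from lists that hold no member. Of 23 further glycolysis and pyruvate genes 19 passed the filter on low counts, of which 0 passed edgeR over all genes in either direction and 8 had a positive log2 FC, with a median of −0.030. In that list 2 had an unadjusted p under 0.05, both higher (10.5%, against 4.08% of all genes). Groups did not overlap for 2, both higher (10.5%, against 7.03% of all genes), and DESeq2 and limma-voom called 0 higher. The lactate dehydrogenase subunit gene Ldhb, for instance, had 52.6, 52.0 and 52.5 CPM in knockout skin, against 54.3, 53.6 and 52.4 CPM in control skin. Among those with the smallest p were Hk3, a hexokinase of blood cells, at a log2 FC of 0.61 (SE 0.18), Tigar at −0.39 (SE 0.19) and Pgam2. Of 37 further hypoxia-induced genes, 0 passed edgeR, 34 had a positive log2 FC, and 17 were higher with groups that did not overlap (45.9%, against 7.03% of all genes). Their median was 0.25. At an unadjusted p under 0.05, 14 were higher (37.8%, against 4.08% of all genes) and 1 was lower (3.35% of all genes). DESeq2 called 3 higher (0.811% of all genes called higher).

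In that list Hmox1, the heme oxygenase gene, had 274, 236 and 272 CPM in knockout skin, against 166, 124 and 110.1 CPM in control skin (log2 FC 0.97, SE 0.15, edgeR adjusted p = 0.0995). Adm, the vasodilator adrenomedullin, had 32.2, 19.1 and 17.8 CPM in knockout skin, against 5.57, 3.37 and 7.80 CPM in control skin (log2 FC 2.04, SE 0.36, edgeR adjusted p = 0.156). Both genes were well apart between groups. Vegfa, the main growth factor of endothelial cells, had 153, 127 and 116 CPM in knockout skin, against 94.2, 87.5 and 115 CPM in control skin (log2 FC 0.41, SE 0.14). Zfp395, a zinc finger gene, had a log2 FC of 0.25 (SE 0.064). Angptl4, which adipose tissue also makes, was 1 of 3 with a negative log2 FC, with 15.8, 17.1 and 20.1 CPM in knockout skin, against 29.4, 27.1 and 22.4 CPM in control skin (log2 FC −0.57, SE 0.13, edgeR adjusted p = 0.262). DESeq2 called Angptl4 lower (DESeq2 adjusted p = 0.0353). Of 6 adipocyte markers tested, 5 had a negative log2 FC and 1 a positive one. They summed to 251 to 346.5 CPM in the knockouts, against 363 to 447 CPM in the controls. The scarce marker Plin1 was called lower (log2 FC −3.22, SE 0.37, edgeR adjusted p = 0.0353). It had 0.979, 0.446 and 0.932 CPM in knockout skin, against 8.93, 4.66 and 8.54 CPM in control skin. The part of adipocytes in the Angptl4 value was not tested. Of 11 further HIF regulators, 0 passed edgeR, 0 had an unadjusted p under 0.05, and DESeq2 and limma-voom called 0 higher. The 4 with the smallest p were Rack1 at a log2 FC of 0.18 (SE 0.10), Rbx1 at −0.080 (SE 0.061), Egln2 and Hif1an at 0.10 (SE 0.084).

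Other marker lists were read beside these genes. Immediate early genes, which respond to stress and to handling of tissue, had 9 of 10 log2 FCs above 0, and summed to 479 to 542 CPM in the knockouts, against 386 to 485 CPM in the controls. Of these 10, 4 were higher at an unadjusted p under 0.05 (40%, against 4.08% of all genes) and 0 lower. Groups did not overlap for 4, all higher (40%, against 7.03% of all genes), and DESeq2 called 2 higher (0.811% of all genes). Genes of the ATF4 stress response had 9 of 10 above 0, at 792 to 840 CPM in the knockouts, against 724 to 797 CPM in the controls. By the same 2 measures 2 (20%) and 3 (30%) of the ATF4 genes were higher. Macrophage markers had 7 of 8 above 0, at 471 to 542 CPM in the knockouts, against 337 to 472 CPM in the controls, with 2 (25%) and 1 (12.5%) higher by these measures. The part of these lists in the differences was not tested. Pan-endothelial markers had 7 of 12 above 0, at 783 to 900 CPM in the knockouts, against 725 to 837 CPM in the controls. Proliferation markers had 1 of 8 above 0, at 1102 to 1130 CPM in the knockouts, against 1004 to 1249 CPM in the controls. Differentiated epidermis markers had 5 of 9 above 0. Among them Lor was highest in knockout 1, at 5058 CPM, against 1529 to 2540 CPM in the other libraries. Flg was lowest there, at 504 CPM, against 1450 to 2194 CPM in the others. The part of epidermal content in the member levels was not tested. Red cell markers summed to 6699 to 8947 CPM in the knockouts, against 16080 CPM in control 1 and 6667 to 8134 CPM in the other controls. Medians were larger with a posterior Hox score as a covariate, a measure of body position that differed between libraries, at 0.48 for glycolysis genes, 0.57 for targets and 0.18 for regulators. With a hair follicle score they were 0.37, 0.46 and 0.13.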

How the data were processed

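Skin RNA of 3 Tie1 knockout and 3 control samples was analysed from the deposited tables, which hold 1 estimated count per gene and library, per the file headers. The submitters' processing notes list RSEM 1.2.12, HISAT2 2.0.4, Bowtie2 2.2.5 and the build GRCm38.p6, with no roles. These expected counts, as the authors deposited them, are not scaled.

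Counts were rounded, filtered with filterByExpr (minimum count 10) and scaled by TMM, which left 15035 of 19131 genes. Groups were compared in edgeR 4.0.16 (R 4.3.3) by the robust quasi-likelihood test with genotype alone in the design, and p-values were adjusted by Benjamini-Hochberg over the 15035 genes. The SE is the log2 fold change divided by the square root of F. Covariate scores are the mean log2 CPM of a marker list. Class averages use log2 CPM with a prior count of 2. The test was checked on simulated counts. In these, edgeR called 8% of 1.3-fold changes, 26% of 1.5-fold, 77.6% of 2-fold and 94% of 4-fold changes, so small shifts were seldom called. Alternatives included DESeq2 1.42.0, limma 3.58.1 (voom), other scalings and filters, covariates, the replicate block and each library left out. No pair of libraries was a duplicate: counts of any 2 differed by at least 9.98 times the sampling variance.

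The members, classes, lists and tests were chosen with earlier results of these data known. Values of each library were given for regulators, for members with an unadjusted p under 0.05 and for exceptions; from other pathway lists, for the 4 with the smallest p (1 is not reported here) and for genes picked after their values were seen. Printed promoter stretches had to lie outside the span of their gene, a condition added after the table was read. Exon lengths are merged GENCODE M21 basic exons, and a length-scaled CPM assumes that all of them are used.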

Additional observations from a re-analysis of the deposited data

How the results depend on the processing

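The direction of the medians held in all settings run, and the scaling moved the median of all genes by no more than 0.031 on the log2 scale. The count of members called moved most, and with a posterior Hox score the 1 called was Slc2a1 and not Stc1. The count was 1 by edgeR, 16 with DESeq2 and 2 with the replicate number as a block. It was 4 with a hair follicle score and 5 without knockout 1 and control 1. For the block, hair follicle and posterior Hox fits the share of all genes called is not reported here. The counts of these fits, and the calls of Slc2a1 and Slc2a3 in them, are thus printed without a background. With a skeletal muscle or a Y-linked score the count of members called was 0. In both of these, 30 members were higher at an unadjusted p under 0.05, against 3.86% of all genes with the muscle and 6.36% with the Y-linked score. Leaving out 1 library gave 0 to 0 called by edgeR, with 20 to 29 members higher at an unadjusted p under 0.05 (20 without control 2), against 2.34% to 4.93% of all genes, and 28 to 33 not overlapping, against 9.66% to 14.0% of all genes. These fits have fewer samples. With 1 library left out, the medians ran from 0.31 to 0.43 for glycolysis genes, 0.36 to 0.51 for targets and 0.11 to 0.20 for regulators. Without both knockout 1 and control 1 the glycolysis median was 0.26. Whether the replicate numbers pair the samples is not stated. Deviations of same-numbered libraries correlated at 0.41, 0.043 and 0.27. These values do not decide it, because none for differently numbered libraries are given beside them. The block changed no call other than that of Slc2a3. Vhl turned below 0 with upper-quartile scaling (−0.030), without a filter (−0.0052), and under the hair follicle (−0.011) and posterior Hox (−0.082) scores, and ranged from −0.045 to 0.074 with 1 library left out. Hif1a was at −0.017 without knockout 1 and control 1 and ranged from −0.0085 to 0.20, P4ha2 from −0.0061 to 0.25 and Pfkfb4 from −0.075 to 0.014 with 1 library left out. The cause of these moves was not tested. The fits without knockout 1 and control 1 and with the hair follicle and Hox scores were chosen after seeing the data. Car9, at 21 to 41 reads a library, was the member most limited by depth.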
